A study of Mus musculus with 24 samples.

Results

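Chemokines are small secreted proteins that draw leukocytes along their gradients, and 10 of their genes were followed in mouse inguinal fat over genotype and circadian time: Ccl11, Ccl2, Ccl7, Ccl8, Ccl6, Ccl9, Cxcl10, Cxcl12, Cxcl13 and Cxcl14. They are 10 of the 19938 genes that had a probe set with a single gene symbol. Where a gene has several such probe sets, the brightest over all 24 arrays is taken, but each of these 10 genes has 1, so brightness chose none of them. The genes were chosen by name with earlier results of these data known, and Ccl11, with its change over the day, gave the list its name. The values of Ccl11 are therefore given as a description, with differences, standard errors and ranks but no p-value, and nothing is read from its part in a count over the list.

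The knockout mice carried 1 copy of an aP2-Cre transgene and floxed Bmal1 alleles (Ad-Bmal1-/-), which the labels describe as an adipocyte-specific loss of Bmal1, the clock gene also called Arntl. The control mice had the same floxed alleles without Cre, so an effect of the transgene itself cannot be told apart from that of the deletion. The aP2 promoter drives Cre in fat cells, and recombination in other cells of the pad was not measured here. Both genotypes were on a C57BL/6J background after 6 or more generations of crossing, ate chow, were held in constant darkness from 36 h before collection began and were fasted for 24 h. Pads were taken at CT0, where the subjective day begins, and at the further circadian times CT6, CT12 and CT18, with 3 biological replicates of each genotype at each time. Ages are not given in the labels.

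Chemokines of the CC and CXC families act through G protein-coupled receptors on leukocytes, and atypical receptors bind the same ligands without the usual signal. In fat, the eosinophil attractant CCL11 and the monocyte attractants CCL2 and CCL7 are known products of stromal and fat cells, and many other members come from macrophages. CXCL12 and CXCL13 guide leukocytes in resting tissue and lymphoid organs, and CXCL10 is induced by interferons. In RNA from whole pads, fewer cells of a type and less RNA per cell cannot be told apart.

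Values are log2 expression from RMA (robust multi-array average), on which 1 unit is a doubling, and the median gene lay at 6.50. The array medians lay between 6.46 and 6.56, and arrays of a group correlated at 0.976 to 0.995. The targeted gene Arntl differed by 0.01 ± 0.08 (SE) over the 4 times, and whether its probe set lies in the deleted part is not given, so this does not check the deletion. The 10 adipocyte markers all lay above the median gene level, with means of 7.64 to 12.52.

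Some arrays stood apart. Knockout replicate 2 at CT0 had a mean of 7.40 over 6 mammary and skin epithelium markers, where the other 23 arrays lay between 6.08 and 6.62. Its adipocyte markers averaged 10.18 against 10.53 to 10.93 elsewhere, and its 13 macrophage and monocyte markers averaged 7.44 against 7.60 to 8.38. A further 4 arrays lay toward the other genotype, namely the first replicates at CT12 and the third replicates at CT18, knockout and control alike. For the carboxylesterase gene Ces1d, which is lower in knockout fat, the knockout arrays of these 4 read 10.75 and 11.06 against 9.99 to 10.33 in the other knockout arrays of those times. The control arrays of the 4 read 10.32 and 10.51 against 10.80 to 11.09 in the other controls of those times. These 4 were singled out in earlier results by genes that differ by genotype, so p-values without them overstate the evidence.

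Promoter sequence from RefSeq (GRCm38.p6) was found for 7 of the 10 genes, and not for Ccl11, Ccl2 and Ccl7. The 250 bases before the start are printed for the genes on which the results turn: Cxcl10, which changed over the day, Ccl6 and Ccl9, neighbours that varied together, and Cxcl13, which differed most between genotypes. Capitals mark matches, on either strand, to the interferon-stimulated element (GAAA, any 2 bases, GAAA) in Cxcl10, to the kappa B motif (GGG, any 2 bases, TTTCC) in Ccl9, where it runs on the reverse strand, and to TATAAA in Ccl9 and Cxcl13. The regions are chr5:92348890-92349139 (minus strand) for Cxcl10, chr11:83593088-83593337 (minus strand) for Ccl6, chr11:83578637-83578886 (minus strand) for Ccl9 and chr5:95956689-95956938 (plus strand) for Cxcl13.
Cxcl10: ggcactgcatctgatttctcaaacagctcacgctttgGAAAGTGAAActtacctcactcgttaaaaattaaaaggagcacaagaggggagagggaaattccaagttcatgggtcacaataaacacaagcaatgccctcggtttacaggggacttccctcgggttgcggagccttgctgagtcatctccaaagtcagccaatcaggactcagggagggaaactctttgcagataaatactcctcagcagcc
Ccl6: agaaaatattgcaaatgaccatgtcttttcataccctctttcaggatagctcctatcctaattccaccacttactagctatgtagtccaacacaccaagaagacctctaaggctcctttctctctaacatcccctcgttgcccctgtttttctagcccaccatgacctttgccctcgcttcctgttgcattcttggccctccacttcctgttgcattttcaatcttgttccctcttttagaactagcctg
Ccl9: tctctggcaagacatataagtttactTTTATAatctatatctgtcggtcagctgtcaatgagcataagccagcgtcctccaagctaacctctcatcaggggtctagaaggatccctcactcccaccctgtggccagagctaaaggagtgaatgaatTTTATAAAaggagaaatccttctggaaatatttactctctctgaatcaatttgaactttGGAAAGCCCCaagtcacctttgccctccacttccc
Cxcl13: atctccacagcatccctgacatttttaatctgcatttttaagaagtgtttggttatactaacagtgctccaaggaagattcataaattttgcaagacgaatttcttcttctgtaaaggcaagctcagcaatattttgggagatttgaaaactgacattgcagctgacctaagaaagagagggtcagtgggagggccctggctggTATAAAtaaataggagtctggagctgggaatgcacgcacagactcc

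The interferon-stimulated element stands in 2 of the 7 promoters, from 213 to 204 bases before the start of Cxcl10 and from 172 to 163 before that of Cxcl14, and in 3.04% of all 27025 promoters of this length. The narrow kappa B form searched stands in 1 of 7, that of Ccl9, and in 1.4% of all promoters. Looser forms were not searched, so the other promoters, that of Cxcl10 among them, are not shown to lack kappa B sites. TATAAA stands in 3 of 7, those of Ccl8, Ccl9 and Cxcl13, and in 13% of all. In Ccl9, 2 of its 3 TATAAA matches, on opposite strands, overlap. The E-box CACGTG, the site through which BMAL1 and CLOCK are known to act, stands in 0 of 7 and in 6.05% of all. Such matches describe the sequence only.

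Over circadian time, Ccl11 was highest at CT12, the change for which it was chosen, and Cxcl10 was highest at CT0 and CT6. Among the 9 genes other than Ccl11, Cxcl10 alone passed the test on the mean of both genotypes, where 0.883% of all genes tested did. This was limma's F test over the 4 times, with a threshold of 0.05 on the adjusted p. A change in 1 genotype can carry this test. Within single genotypes the adjusted p of Cxcl10 by limma was 0.0502 in control fat and 0.513 in knockout fat. An unadjusted p under 0.05 was reached by 3 of the 9, Cxcl10, Ccl9 and Cxcl12, against 16.1% of all genes. The other 8 genes did not pass.

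Ccl11 encodes eotaxin, the ligand of the eosinophil receptor CCR3 (probe set 10379524, gene at chr11:82057832-82062955 in GRCm38.p6). At CT0 it read 10.27, 10.07 and 10.55 on the knockout arrays and 10.58, 10.47 and 10.68 on the control arrays. At CT6 it read 10.66, 10.77 and 10.82 in knockout fat and 10.74, 10.70 and 10.71 in control fat. In both genotypes the mean was thus higher at CT6 than at CT0. At CT12 it read 10.92, 11.001 and 11.06 in knockout fat and 10.78, 10.99 and 11.14 in control fat. At CT18 it read 10.48, 10.47 and 10.61 in knockout fat and 10.71, 10.65 and 10.63 in control fat. All 6 arrays at CT12 lay above all 6 at CT0 and above all 6 at CT18, as 0.853% of all genes did in each of these comparisons, while the arrays at CT12 and CT6 overlapped. By genotype, at CT18 no knockout array reached the lowest control, as for 4.25% of all genes, and the groups overlapped at the other times. The genotype difference was -0.28 ± 0.10 (SE) at CT0, rank 301 of 19938 genes, and -0.17 without knockout replicate 2 at that time, and over the 4 times it was -0.09 ± 0.05.

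Averaged over both genotypes, Ccl11 lay at 10.44 ± 0.23 (SD, n = 6) at CT0, 10.73 ± 0.06 at CT6, 10.98 ± 0.13 at CT12 and 10.59 ± 0.10 at CT18, a 1.46-fold span from trough to peak. In the F test over both genotypes it ranked 17 of 19938 genes by p. From CT0 to CT12 it rose by 0.70 ± 0.10 (SE) in knockout fat, rank 3 of all genes. Without knockout replicate 2 at CT0 this difference was 0.58, and without knockout replicate 1 it was 0.69. In control fat the same difference was 0.39 ± 0.10, rank 51.

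Markers of other cells moved with this difference. In knockout fat the 13 macrophage and monocyte markers were all higher at CT12 than at CT0, with a median difference of 0.45, and 0 of 13 passed (by limma, with 6 at an unadjusted p under 0.05). The 6 smooth muscle and pericyte markers were all lower at CT12, with a median of -1.03, and 0 of 6 passed (by limma, with 5 at an unadjusted p under 0.05). Without knockout replicate 2 at CT0 the macrophage median was 0.25, with 11 of 13 higher, and the smooth muscle median was -0.76, with 6 of 6 lower. In control fat the medians were 0.01 and -0.17. Their part in the difference of Ccl11 was not tested.

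Of the 9 genes other than Ccl11, 0 passed from CT0 to CT12 in knockout fat, against 0.0953% of all genes. An unadjusted p under 0.05 was reached there by 5 of these 9, against 9.77% of all genes. Ccl6 and Ccl9 were higher and Ccl2, Ccl7 and Cxcl10 lower at CT12. Without knockout replicate 2 at CT0, Ccl2 and Cxcl10 alone still reached it. The differences of Ccl6, Ccl9 and Ccl7 were then 0.26, 0.26 and -0.24. In control fat 0 of these 9 passed by limma, against 0.0401% of all genes. Cxcl10 alone of the 9 had an unadjusted p under 0.05 there, against 4.94% of all genes. For the genotype by time interaction 0 of the 10 genes and 0% of all genes passed (2 at an unadjusted p under 0.05, Cxcl10 and Ccl2, against 2.98% of all genes), so the genotypes were not shown to differ in their course over the day.

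**Figure D1:**
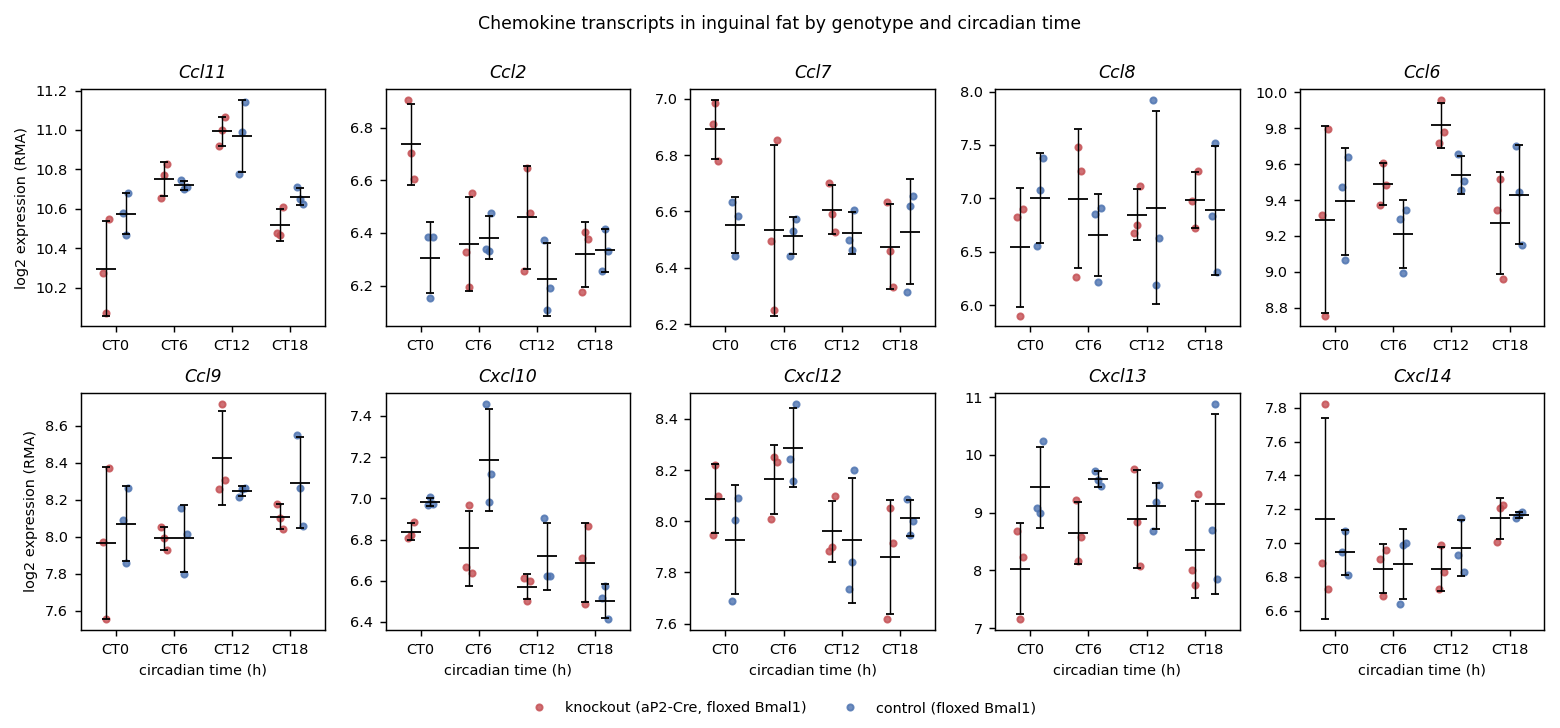
Log2 expression (RMA) of the 10 chemokine genes against circadian time, 1 panel per gene with its own axis. Points are single arrays, knockout to the left of control at each time, and bars give the mean ± SD of 3 arrays. Ccl11 peaks at CT12 in both genotypes, and Cxcl10 in control fat is highest at CT6.

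Cxcl10 encodes an interferon-induced ligand of CXCR3, the receptor of activated T and natural killer cells (probe set 10531415, chr5:92346638-92348889). At CT0 it read 6.81, 6.82 and 6.88 in knockout fat and 6.97, 7.01 and 6.97 in control fat. At CT6 it read 6.67, 6.97 and 6.64 in knockout fat and 7.46, 6.98 and 7.12 in control fat. The knockout arrays lay below all control arrays at both times, as did 4.47% of all genes at CT0 and 6.27% at CT6. At CT12 it read 6.61, 6.50 and 6.60 in knockout fat and 6.91, 6.62 and 6.62 in control fat, again without overlap, as 5.12% of all genes lay below at that time. At CT18 it read 6.71, 6.49 and 6.87 in knockout fat and 6.52, 6.57 and 6.41 in control fat, and here the groups overlapped and the mean was higher in knockout fat. The genotype difference of Cxcl10 was -0.43 ± 0.12 (SE) at CT6, rank 18 of all genes (adjusted p = 0.9997 by limma), and -0.13 ± 0.06 over the 4 times (adjusted p = 0.768).

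Over both genotypes Cxcl10 lay at 6.91 ± 0.08 (SD, n = 6) at CT0, 6.97 ± 0.30 at CT6, 6.64 ± 0.14 at CT12 and 6.59 ± 0.17 at CT18 (adjusted p = 0.0344 by limma, rank 104). It passed with each array left out in turn in 12 of 24 fits. From CT6 to CT18 it fell by 0.68 (SE 0.12) in control fat (adjusted p = 0.0196), the 1 gene of the 10 to pass, against 0.0602% of all genes. In knockout fat the difference was -0.07 ± 0.12 (adjusted p = 0.836 by limma), and 0 of 10 genes passed, against 0.0201% of all. Of the genes other than Ccl11, Cxcl12 alone had an unadjusted p under 0.05 by limma there, against 11.8% of all genes. The difference between these changes of Cxcl10 in the 2 genotypes was not tested on its own. The interaction over all 4 times did not pass for Cxcl10 (adjusted p = 0.9997 by limma). Without the 4 arrays that lay toward the other genotype, the difference in control fat from CT6 to CT18 was -0.64 and the call was lost, with an adjusted p of 0.0765. It was also lost without control replicate 1 or 3 at CT6 or at CT18, with differences of -0.72 to -0.55 and an adjusted p of up to 0.171.

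Within single genotypes the test over the 4 times passed in knockout fat for 0 of the 9 genes other than Ccl11, where 0.0702% of all genes passed (by limma, with 4 at an unadjusted p under 0.05, Ccl2, Ccl7, Ccl6 and Ccl9, against 13.4%). In control fat it passed for 0 of 10, against 0.0602% of all. Of the 9 genes other than Ccl11, Cxcl10 and Cxcl12 had an unadjusted p under 0.05 by limma there, against 5.8%. Cxcl10 was the nearest in control fat (adjusted p = 0.0502). The remaining genes spanned 1.12-fold (Ccl8) to 1.31-fold (Cxcl13) between their lowest and highest time means over both genotypes. Ccl6 and Ccl9 were both highest at CT12, at 9.68 ± 0.18 and 8.34 ± 0.19 (SD, n = 6), and Cxcl12 was highest at CT6, at 8.23 ± 0.15. Their adjusted p over both genotypes were 0.348 for Ccl6, 0.229 for Ccl9 and 0.216 for Cxcl12.

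For the mean genotype difference over the 4 times, 0 of the 10 genes passed, against 0.0201% of all genes by limma. An unadjusted p under 0.05 was reached by 3 of 10, with Ccl2 higher and Cxcl10 and Cxcl13 lower in knockout fat, against 6.07% of all genes. The differences were above 0 for 4 genes and below 0 for 6, with a median of -0.02 where the median over all genes was 0.0008. At the single times 0 of 10 passed, against 0% of all genes at CT0, CT6 and CT12 and 0.00502% at CT18. At an unadjusted p under 0.05 there were 4 of 10 at CT0 (5.55% of all genes), namely Ccl2, Ccl7, Ccl11 and Cxcl13. There was 1 at CT6 (Cxcl10, against 3.77%), 1 at CT12 (Ccl2, against 2.49%) and 0 at CT18 (against 6.05%). Without knockout replicate 2 at CT0, Ccl2 and Ccl7 alone remained at CT0, and Ccl2 no longer reached it at CT12. The differences at CT0 were then -0.98 for Cxcl13 and -0.17 for Ccl11. Nothing is read from the part of Ccl11 in the count.

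**Figure D2:**
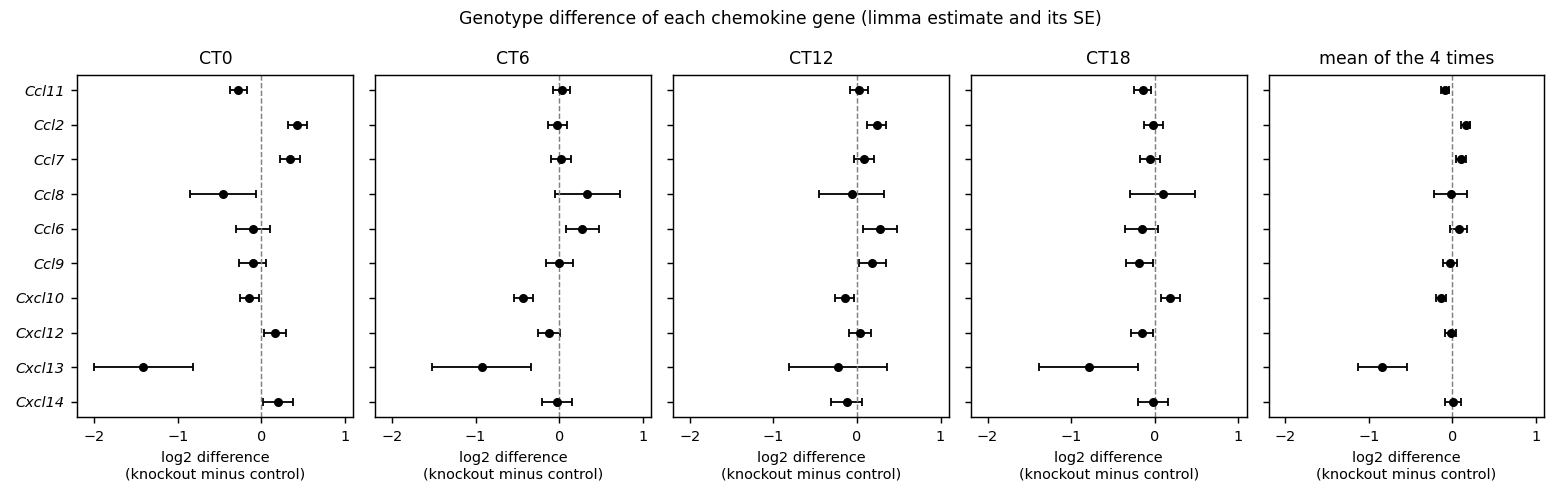
Log2 difference of knockout minus control for the 10 chemokine genes at CT0, CT6, CT12 and CT18 and as the mean over the 4 times. Points are limma estimates and bars their SE. Cxcl13 lies left of 0 in all 5 panels with the widest bars, and Ccl2 and Ccl7 lie furthest right at CT0.

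Cxcl13 attracts B cells through CXCR5 and is made by stroma of lymphoid follicles (probe set 10523359, chr5:95956939-95961068). Of the 10 genes it differed most between genotypes and also varied most within groups, with a pooled SD of 0.83. At CT0 it read 8.69, 7.15 and 8.24 in knockout fat and 9.08, 8.99 and 10.25 in control fat. At CT6 it read 9.22, 8.16 and 8.58 in knockout fat and 9.73, 9.56 and 9.45 in control fat. At both times all knockout arrays lay below all controls, as 4.47% of all genes did at CT0 and 6.27% at CT6. At CT12 it read 9.76, 8.83 and 8.08 in knockout fat and 8.69, 9.19 and 9.48 in control fat. At CT18 it read 8.01, 7.75 and 9.32 in knockout fat and 8.71, 10.89 and 7.86 in control fat. The groups overlapped at both of these times, and 10 of 12 knockout arrays were lower than the mean of the controls taken at the same time.

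The mean genotype difference of Cxcl13 was -0.84 ± 0.29 (SE; adjusted p = 0.634 by limma). The 2 knockout arrays above the control mean were replicate 1 at CT12 and replicate 3 at CT18, which are among the 4 arrays that lay toward the other genotype. Without the 4 the difference was -1.28 ± 0.26 (adjusted p = 0.0318) and it passed, as 0.697% of all genes then did. Without these and knockout replicate 2 at CT0 it was -1.17 ± 0.24 (adjusted p = 0.0167), where 1.69% of all genes passed. Neither pass is evidence of a genotype difference in Cxcl13. The 4 arrays were picked for their unlikeness to their own genotype, and leaving such arrays out favours a larger difference and a smaller p. Over left-out single arrays the difference lay between -1.001 and -0.622 and passed in 0 of 24 fits.

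Markers of B cells and of lymph node stroma and vessels, and also those of eosinophils, moved with Cxcl13. Across the 24 arrays it correlated with the mean of 7 B cell markers (Pearson r = 0.70, permutation p = 0.00013, adjusted p = 0.00563; Spearman rho = 0.66, p = 0.00062, adjusted p = 0.0247). It also correlated with the mean of 4 lymph node stroma and vessel markers (r = 0.70, p = 1e-04, adjusted p = 0.00563; rho = 0.72, p = 0.00017, adjusted p = 0.011). With 6 eosinophil markers, all below the median gene level, r was 0.57 (permutation p = 0.0039, adjusted p = 0.0444). Their rho was 0.58 (permutation p = 0.00329, adjusted p = 0.0713), which did not pass. Here 100000 permutations were drawn, two-sided, and adjustment ran over the 130 relations of 10 genes with 13 marker lists. Without the 2 arrays farthest from the median of the markers r was 0.54 for B cell and 0.59 for lymph node markers. For deviations from the group means it was 0.86 and 0.70. The same 2 values for eosinophil markers were 0.52 without the 2 farthest arrays and 0.67 for deviations. With 8 T cell markers neither measure passed. There r was 0.54 (permutation p = 0.00545, adjusted p = 0.0535) and rho 0.35 (permutation p = 0.0903, adjusted p = 0.391). For the T cell markers r was 0.21 without the 2 farthest arrays and 0.60 for deviations.

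The B cell markers were lower in knockout fat for 7 of 7 genes, with a median difference of -0.11, and 0 of 7 passed (by limma, with 0 at an unadjusted p under 0.05). Without knockout replicate 2 at CT0 the median was 0.00, with 3 of 7 lower, and without the 4 arrays it was -0.19, with 7 of 7 lower. The B cell markers averaged 5.66 to 6.73 on the knockout arrays at CT0 and 5.78 to 6.92 on the controls, so they overlapped where Cxcl13 did not. At CT6 they averaged 5.94 to 6.28 on knockout arrays and 6.24 to 6.59 on controls. Of the 7 markers, 5 lay below the median gene level, among them Cr2, a complement receptor of B cells and follicular dendritic cells, at 5.74. For knockout minus control over the 4 times, the differences of all 8 T cell markers also lay below 0, at a median of -0.13, and 0 passed (by limma, with 1 at an unadjusted p under 0.05). Those of 3 of 4 lymph node stroma and vessel markers did so, at a median of -0.07 over the 4, and 0 passed (by limma, with 1 at an unadjusted p under 0.05, Glycam1, at -0.61). Those of all 8 endothelial markers lay below 0, at a median of -0.16, and 0 passed (by limma, with 5 at an unadjusted p under 0.05). The part of lymphoid tissue or vessels in the Cxcl13 difference was not tested.

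Ccl2, Ccl7 and Ccl8 lie near Ccl11 on chromosome 11 and encode members of the monocyte chemoattractant protein family, of which CCL2 and CCL7 act through CCR2. Ccl2 (probe set 10379511, chr11:82035577-82037452) read 6.91, 6.70 and 6.60 in knockout fat and 6.38, 6.15 and 6.38 in control fat at CT0. At CT6 it read 6.33, 6.20 and 6.55 in knockout fat and 6.34, 6.33 and 6.48 in control fat. The knockout arrays thus lay above all controls at CT0, as did 6.28% of all genes, and overlapped them at CT6. At CT12 it read 6.26, 6.65 and 6.47 in knockout fat and 6.37, 6.11 and 6.19 in control fat, and at CT18 6.18, 6.40 and 6.38 in knockout fat and 6.26, 6.42 and 6.33 in control fat.

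The difference of Ccl2 was 0.43 ± 0.11 (SE) at CT0 (adjusted p = 0.532 by limma, rank 36 of 19938 genes) and 0.16 ± 0.06 over the 4 times (adjusted p = 0.640). At CT0 it was 0.45 without knockout replicate 2. Of its 12 knockout arrays 9 lay above the control mean of their time. Its mean over all arrays lay below the median gene level.

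Ccl7 (probe set 10379518, chr11:82045712-82047525) read 6.91, 6.98 and 6.78 in knockout fat and 6.63, 6.44 and 6.58 in control fat at CT0, again without overlap. Ccl2 and Ccl7 were the 2 of 10 genes with all knockout arrays above all controls at CT0, against 6.28% of all genes, and Cxcl10 and Cxcl13 were the 2 of 10 with all below, against 4.47%. The difference of Ccl7 at CT0 was 0.34 ± 0.12 (SE; adjusted p = 0.794 by limma). At CT6, CT12 and CT18 it was 0.02, 0.08 and -0.05, each with an SE of 0.12, and the groups overlapped.

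Ccl8 (probe set 10379535, chr11:82115185-82116799) ranged from 5.90 to 7.48 in knockout fat, with a median of 6.86, and from 6.18 to 7.92 in control fat, with a median of 6.84. Its groups overlapped at all 4 times, and its pooled SD within groups was 0.54. Its mean genotype difference was -0.02 ± 0.20 (SE).

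Ccl6 and Ccl9 encode CC ligands known in mouse and made by macrophages and other myeloid cells, and the genes are neighbours on chromosome 11. Ccl6 (probe set 10389222, chr11:83587886-83593087) read 9.32, 8.76 and 9.80 in knockout fat and 9.47, 9.06 and 9.64 in control fat at CT0. At CT6 it read 9.37, 9.61 and 9.48 in knockout fat and 9.30, 8.99 and 9.34 in control fat. At CT12 it read 9.72, 9.96 and 9.78 in knockout fat and 9.66, 9.45 and 9.51 in control fat. The knockout arrays lay above all controls at CT6 and at CT12, where 5.01% and 2.97% of all genes did so, and overlapped them at CT0. At CT18 it read 9.34, 9.52 and 8.96 in knockout fat and 9.70, 9.44 and 9.15 in control fat, which also overlapped.

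The genotype difference of Ccl6 was 0.28 ± 0.20 (SE) at CT6 and the same at CT12, with an adjusted p of 0.9997 and 0.9998. Over the 4 times it was 0.07 ± 0.10. From CT0 to CT12 the difference in knockout fat was 0.53 ± 0.20 (adjusted p = 0.374 by limma), and 0.26 without knockout replicate 2 at CT0. The macrophage markers, with a median difference of 0.45 and of 0.25 without that array, moved the same way, and their part was not tested.

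Ccl9 (probe set 10389214, chr11:83572917-83578636) ranged from 7.55 to 8.72 in knockout fat, with a median of 8.08, and from 7.80 to 8.55 in control fat, with a median of 8.19. The groups overlapped at all 4 times, and the mean genotype difference was -0.03 ± 0.08 (SE). From CT0 to CT12 the difference in knockout fat was 0.46 ± 0.16 (adjusted p = 0.339 by limma), and 0.26 without knockout replicate 2 at CT0. That array held the lowest value of both Ccl6 and Ccl9, and here too the part of the macrophage markers was not tested.

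Both genes followed macrophage markers across the arrays. With the mean of 13 macrophage and monocyte markers, Ccl6 correlated at r = 0.85 and rho = 0.79 (permutation p = 1e-05 for each, the smallest these permutations can give, adjusted p = 0.0013). Ccl9 correlated at r = 0.70 (permutation p = 0.00027, adjusted p = 0.00877) and rho = 0.66 (p = 0.00076, adjusted p = 0.0247). Without the 2 arrays farthest from the median of the markers r was 0.74 for Ccl6 and 0.60 for Ccl9, and for deviations from the group means it was 0.87 and 0.74. The median of their mean over the arrays was 8.16 in knockout fat and 8.01 in control fat at CT6, and the mean ranged over 8.15 to 8.35 in knockout fat and 8.03 to 8.12 in control fat at CT12. At CT12 these marker means did not overlap between genotypes, nor did Ccl6, and the part of the markers in that difference was not tested. Ccl6 also correlated with 10 adipocyte markers (r = 0.59, permutation p = 0.00219, adjusted p = 0.0356; rho = 0.42, p = 0.0447, adjusted p = 0.306). Ccl9 did so with 6 smooth muscle and pericyte markers (r = -0.61, permutation p = 0.00157, adjusted p = 0.0356; rho = -0.56, p = 0.0054, adjusted p = 0.0877). Without the 2 farthest arrays these r were 0.42 and -0.42.

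**Figure D3:**
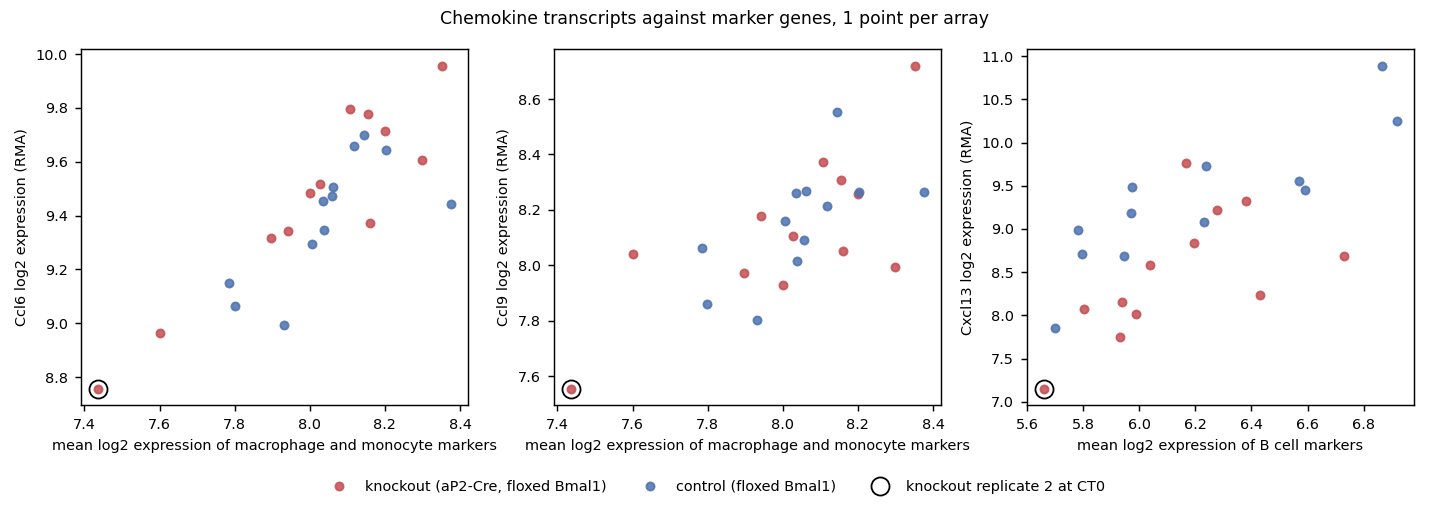
Log2 expression (RMA) of Ccl6 and Ccl9 against the mean of 13 macrophage and monocyte markers, and of Cxcl13 against the mean of 7 B cell markers, 1 point per array (24 arrays, knockout and control coloured). Each gene is higher on arrays with higher markers, and knockout replicate 2 at CT0, circled, lies lowest on both axes in all 3 panels.

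For Ccl11 the correlations are given as a description. With the macrophage markers r was 0.60 and rho 0.53. Without the 2 farthest arrays r was 0.44, and without knockout replicate 2 at CT0 it was 0.42. With the smooth muscle and pericyte markers r was -0.59, and -0.47 without that array. With 5 neutrophil markers, 4 of them below the median gene level, r was -0.46, and -0.64 without that array. With 6 mast cell markers r was 0.44 and rho 0.62, and r was 0.50 without that array. For deviations from the group means r was 0.37 with macrophage, -0.41 with smooth muscle, -0.155 with neutrophil and -0.10 with mast cell markers. The strongest r for deviations was with the endothelial markers, at 0.64. It was -0.48 with epithelial and 0.395 with adipocyte markers. Over all arrays r with the endothelial markers was 0.33, and 0.10 without knockout replicate 2 at CT0. With 6 markers of eosinophils, the cells that CCL11 attracts, r was 0.04 and rho 0.03. These markers, among them Ccr3 at 4.93 and Epx, a granule peroxidase, at 4.65, all had means below the median gene level. Neither Ccl2 nor Ccl7 passed with macrophage markers, with r of -0.16 (permutation p = 0.463, adjusted p = 0.767; rho = -0.004, p = 0.986, adjusted p = 0.998) and -0.28 (p = 0.178, adjusted p = 0.472; rho = -0.15, p = 0.478, adjusted p = 0.755).

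Cxcl12 encodes the ligand of CXCR4 that retains blood progenitors and guides lymphocytes (probe set 10541075, chr6:117168535-117181368). It ranged from 7.62 to 8.25 in knockout fat, with a median of 8.03, and from 7.69 to 8.46 in control fat, with a median of 8.05. The groups overlapped at all 4 times, and the mean genotype difference was -0.02 ± 0.07 (SE).

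Cxcl14 encodes a chemokine of epithelia and other tissues (probe set 10409579, chr13:56288643-56296811). It ranged from 6.68 to 7.82 in knockout fat, with a median of 6.93, and from 6.64 to 7.18 in control fat, with a median of 6.99. Its highest value lay on knockout replicate 2 at CT0, the array with raised epithelial markers. With those markers r was 0.66 over the 24 arrays (permutation p = 0.0208, adjusted p = 0.124; rho = 0.09, p = 0.68, adjusted p = 0.883) and -0.05 without the 2 farthest arrays, so the relation rested on them. The genotype difference at CT0 was 0.20 ± 0.18 (SE), and -0.14 without that array. With 10 adipocyte markers r of Cxcl14 was -0.68 (permutation p = 0.0041, adjusted p = 0.0444; rho = -0.28, p = 0.19, adjusted p = 0.551). With 13 macrophage and monocyte markers r was -0.63 (permutation p = 0.00192, adjusted p = 0.0356; rho = -0.49, p = 0.0173, adjusted p = 0.173). Without the 2 farthest arrays these r were -0.16 and -0.25.

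Among the 10 genes themselves, Ccl6 and Ccl9 had the highest correlation of the 45 pairs, given here as a description. It was 0.83 over the 24 arrays, 0.80 without the 2 farthest arrays and 0.86 for deviations from the group means. Ccl2 and Ccl7 correlated at 0.68, and at 0.37 for deviations from the group means. Ccl11 and Ccl9 correlated at 0.61 for deviations, and at 0.43 without knockout replicate 2 at CT0. For deviations Cxcl14 correlated at -0.67 with Ccl6, -0.61 with Ccl9 and -0.58 with Ccl11, and without that array at -0.38, -0.28 and -0.24. The array is low for Ccl11, Ccl6 and Ccl9 and high for Cxcl14.

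**Figure D4:**
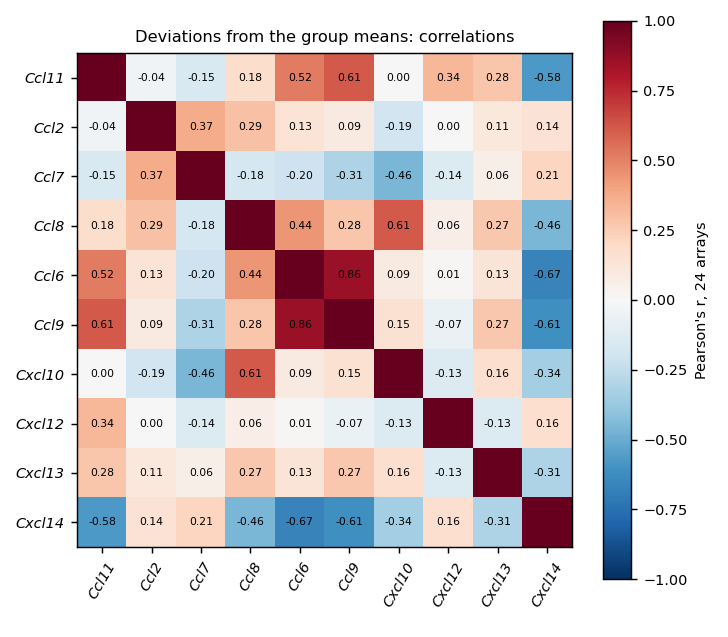
Pearson correlations between the 10 chemokine genes over 24 arrays, after the mean of each of the 8 groups was subtracted. Red squares are positive and blue ones negative. Ccl6 and Ccl9 hold the strongest positive value (0.86) outside the diagonal, and Cxcl14 is negative with Ccl6 (-0.67), Ccl9 (-0.61) and Ccl11 (-0.58), values that are -0.38, -0.28 and -0.24 without knockout replicate 2 at CT0.

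The genes whose level over the 24 arrays was most like that of a chemokine gene were ranked by Pearson correlation, with no test. For Ccl11 they were the interferon-inducible gene Ifi207 (0.87), the period gene Per3 (0.82) and the acetyltransferase gene Naa60 (0.82). For Cxcl13 they were Cyfip2 (0.78), the peptidase gene Erap1 (0.78) and Tmem154 (0.77). For Cxcl14 they were Moxd1 (0.86), Sprr2f (0.85), which encodes a small proline-rich protein of epithelia, and Dnah14 (0.84). Without knockout replicate 2 at CT0 these last 3 lay at 0.71, 0.68 and 0.63, and those of Ccl11 at 0.82, 0.81 and 0.74.

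Further chemokine genes were read against the shares of all genes for the mean genotype difference, 0.0201% past the threshold and 6.07% at an unadjusted p under 0.05. Of 13 further CC ligands, 0 passed by genotype (limma, with 1 at an unadjusted p under 0.05), with a median of 0.01, 7 above and 6 below 0. That 1 was Ccl26, in human the gene of a further eotaxin, at 0.15 ± 0.05 (SE; adjusted p = 0.441), with a level of 5.71 below the median gene. The T cell attractant gene Ccl5 lay at -0.35 ± 0.19 (adjusted p = 0.864). Of 13 further CXC, CX3C and XC ligands, 0 passed (by limma, with 1 at an unadjusted p under 0.05), with a median of 0.03. That 1 was Cxcl9, which like Cxcl10 is interferon-induced and binds CXCR3, at -0.41 ± 0.13 (adjusted p = 0.543).

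Of 17 chemokine receptors, 0 passed for genotype (by limma, with 0 at an unadjusted p under 0.05), with 7 above and 10 below 0 and a median of -0.03. Cxcr4, the receptor of CXCL12, lay nearest at -0.21 ± 0.10 (SE; adjusted p = 0.825). Cxcr5, the receptor of CXCL13, was at -0.09 ± 0.09, at a level of 4.73 below the median gene. Of 6 atypical receptors and proteases, 0 passed (by limma, with 2 at an unadjusted p under 0.05). Those 2 were the chemerin-binding receptor gene Ccrl2 at 0.18 ± 0.06 (adjusted p = 0.578) and Ackr4, a scavenger of homeostatic CC chemokines, at -0.24 ± 0.09 (adjusted p = 0.655).

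Of 15 cytokine and signalling genes linked to the induction of chemokines, 0 passed for genotype (by limma, with 1 at an unadjusted p under 0.05). That 1 was the interferon-responsive factor gene Irf1 at -0.10 ± 0.04 (SE; adjusted p = 0.694). Over circadian time in both genotypes 1 of the 15 passed, Il33, an alarmin of stromal cells (adjusted p = 0.0397), where 0.883% of all genes passed and 16.1% had an unadjusted p under 0.05. The further ligands, receptors and atypical receptors gave 0 of 13, 0 of 13, 0 of 17 and 0 of 6 (by limma, with 0, 2, 0 and 4 at an unadjusted p under 0.05). The nearest was Ackr2, which takes up inflammatory CC chemokines (adjusted p = 0.0804).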

How the data were processed

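The deposited table holds log2 expression values of 24 Affymetrix mouse gene arrays of inguinal fat, made by the authors with RMA, per the submitters' processing notes. Its version, scan dates and hybridization batches were not stated in these sources. Total RNA came from Trizol extraction, of which 50 ng was amplified, per the labels' protocols. The values were used as deposited. Of 35556 probe sets, 21789 had 1 symbol in the platform annotation, 1621 several and 12146 were unnamed here. A gene was represented by its brightest single-symbol probe set (999 genes had several), which left 19938 genes. Entrez numbers of 19856 matched RefSeq (GRCm38.p6), with 0 symbols changed.

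The 8 groups were fitted with limma 3.58.1 (lmFit, eBayes) in R 4.3.3, with 16 residual degrees of freedom and Benjamini-Hochberg adjustment over all genes at 0.05. Differences by genotype are knockout minus control, with the standard error of the fit. Dim genes were kept, and precision is limited by the number of arrays. Correlations and promoter matches were computed in Python 3.11.15. The fit was tested on simulated data. The members and lists were chosen with earlier results of these data known. The genes named beside the 10 are up to 4 per list with the smallest p, all that passed, and the 3 most correlated with Ccl11, Cxcl13 and Cxcl14. Some listed genes are not reported here. Alternatives were other normalization, variance, weighting, filtering and probe set choices, a replicate block, and left-out arrays.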

Additional observations from a re-analysis of the deposited data

How the results depend on the processing

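Counts of the 10 genes past the threshold moved in these settings. For the mean genotype difference 1 (Cxcl13) passed without the 4 arrays toward the other genotype and without these and knockout replicate 2 at CT0, against 0 with all arrays. For CT12 minus CT0, 0 passed in knockout fat without those 5 arrays, against 1, and 1 (Ccl11) in control fat without them and with array weights, against 0. For CT18 minus CT6 in control fat, 0 passed without the 4 arrays, against 1. For time in control fat, 1 (Cxcl10) passed with quantile normalization, with a trended robust variance, with dim genes left out and with the mean of a gene's probe sets, and 2 (Cxcl10 and Ccl11) with array weights, against 0. For time in knockout fat, 0 passed without the 4 and without the 5 arrays, against 1. The causes were not tested. Ccl11 was chosen for its change over the day, so its calls only show how the counts move and are not evidence. Genotype calls without the 4 arrays overstate the evidence, since genes that differ by genotype singled these arrays out. With 1 array left out in turn, CT12 minus CT0 in knockout fat gave 0 to 1, CT18 minus CT6 in control fat 0 to 1, time in control fat 0 to 1, time in knockout fat 0 to 1 and time over both genotypes 1 to 2, and the other 8 counts stayed at 0. The call of Ccl11 from CT0 to CT12 in knockout fat was lost without knockout replicate 1 at CT0, and its call for time in knockout fat without that array or without knockout replicate 2 or 3 at CT12. The call of Cxcl10 from CT6 to CT18 in control fat was lost without control replicate 1 or 3 at either time. Its call for time over both genotypes was lost in 12 of 24 fits, those without any 1 control array at CT0, controls 3 at CT6, 2 and 3 at CT12, 1 and 3 at CT18, or knockouts 2 at CT6, 1 and 2 at CT12 and 1 at CT18, with an adjusted p of at most 0.0732. For time in control fat Cxcl10 passed without knockouts 2 at CT0, 2 at CT6, 2 and 3 at CT18, or controls 2 at CT6 and 1 at CT12. Of 1114 recomputed values of 35 results on single genes, 1074 kept their direction and side of the threshold, 24 lost and 16 gained it, and 0 reversed. Of 2203 other values, those of differences with an unadjusted p of 0.05 or more over all arrays, 129 turned sign.

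The replicate numbers did not pair the arrays at every time: the deviations of 12 same-numbered pairs correlated at -0.370 to 0.374, with 5 over 0.1. At CT0 replicates 1, 2 and 3 correlated at 0.19, 0.37 and 0.33. The values with other numbers, -0.07, -0.22 and -0.13, are no separate evidence of pairing. Deviations within a group sum to 0, which ties these values to the opposite sign. Whether arrays at CT0 shared a litter, batch or day is not given in the labels. Control replicate 2 at CT0 averaged 10.14 over the smooth muscle and pericyte markers, near 10.16 on knockout replicate 2, and was not left out with it. Epithelial markers averaged at most 6.23 in control fat at CT0. With the replicate number as a block the counts were 0 for genotype, 2 for time over both genotypes and 1 for time in knockout fat, as without the block. Dim probe sets limit what could be seen: Ccl2 lay below the median gene level and was not tested where dim genes were left out. The fit without 5 arrays was chosen after seeing the data.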
